A study of Mus musculus with 10 samples.

Results

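Messenger RNA of 9 genes of the spindle checkpoint and of cohesin protection was followed through early meiosis in the juvenile mouse testis: Ttk, Bub1, Bub1b, Bub3, Mad1l1, Mad2l1, Sgo1, Sgo2a and Meikin. They were taken by gene symbol or an older synonym from the platform annotation. No cut-off on level was used, but earlier results of these data were known when they were chosen. They are 9 of 18194 genes named on the arrays and are covered by 19 of 35067 probe sets that name 1 gene. All samples came from C57BL/6 males. Spermatogonia were Percoll fraction 2 of testes at day 8, leptotene/zygotene spermatocytes fraction 5 at day 12 and pachytene spermatocytes fraction 8 at day 15. Whole testis was taken at day 15, and the somatic mix was RNA pooled from 11 organs at day 15. Testes for the fractions were dissociated with hyaluronidase, trypsin and collagenase, so each fraction is enriched for a stage and not pure. The study's title gives its question, a search for genes that act in chromosome segregation in the first meiotic division.

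The spindle checkpoint holds a dividing cell before anaphase until every kinetochore has captured microtubules. The kinase TTK (MPS1) starts it, BUB1 and BUB3 bind the kinetochore protein KNL1, and MAD1 brings MAD2 there, which then joins BUBR1 (the product of Bub1b) and BUB3 in restraining CDC20, the activator of the anaphase promoting complex. BUB1 also marks centromeric chromatin, where shugoshins dock, and in the first meiotic division SGO2 with protein phosphatase 2A keeps centromeric cohesin from separase, with the meiosis-specific kinetochore protein MEIKIN beside it. SGO1 is the shugoshin best known from mitosis.

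Promoters of some members whose levels went opposite ways in pachytene are given so that their letters can be compared. From the higher members these are Ttk (by its brighter probe set) and Bub1b, and from the lower Bub1, Sgo1 and Mad2l1. The windows of Bub3 and Sgo2a, also higher, were searched but are not printed. The RefSeq-derived promoter table (GRCm38.p6, 250 bases before to 50 after each gene start) had windows for 8 of the 9 members, 11 windows in all. Each sequence runs 5′ to 3′ along the gene's strand, and capitals mark CCAAT and the cell cycle homology letters TTTGAA or TTCGAA on either strand.
Ttk promoter, chr9:83834439-83834738, plus strand: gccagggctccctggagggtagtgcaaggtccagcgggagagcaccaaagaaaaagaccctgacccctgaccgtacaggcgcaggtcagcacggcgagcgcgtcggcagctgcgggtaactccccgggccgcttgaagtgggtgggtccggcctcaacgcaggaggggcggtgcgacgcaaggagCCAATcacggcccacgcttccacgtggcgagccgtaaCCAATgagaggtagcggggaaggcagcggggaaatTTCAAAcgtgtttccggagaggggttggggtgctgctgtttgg
Bub1b promoter, chr2:118597961-118598260, plus strand: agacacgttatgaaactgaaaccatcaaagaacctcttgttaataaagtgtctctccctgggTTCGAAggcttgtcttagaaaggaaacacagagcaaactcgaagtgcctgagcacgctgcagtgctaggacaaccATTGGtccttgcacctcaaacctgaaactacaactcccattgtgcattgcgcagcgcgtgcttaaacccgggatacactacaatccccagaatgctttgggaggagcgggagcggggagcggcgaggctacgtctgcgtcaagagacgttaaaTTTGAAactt
Bub1 promoter, chr2:127831810-127832109, minus strand: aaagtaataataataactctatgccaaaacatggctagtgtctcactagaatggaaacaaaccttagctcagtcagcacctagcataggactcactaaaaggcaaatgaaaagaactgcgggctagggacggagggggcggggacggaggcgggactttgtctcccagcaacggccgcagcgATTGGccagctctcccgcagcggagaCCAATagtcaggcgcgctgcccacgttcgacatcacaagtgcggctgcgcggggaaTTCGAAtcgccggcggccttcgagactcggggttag
Sgo1 promoter, chr17:53689266-53689565, minus strand: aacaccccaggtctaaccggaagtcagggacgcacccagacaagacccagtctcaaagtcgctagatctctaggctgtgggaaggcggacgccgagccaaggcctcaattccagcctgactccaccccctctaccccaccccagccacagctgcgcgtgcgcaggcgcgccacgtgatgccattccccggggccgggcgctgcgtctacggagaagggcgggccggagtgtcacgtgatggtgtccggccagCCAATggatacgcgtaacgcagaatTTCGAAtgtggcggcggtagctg
Mad2l1 promoter, chr6:66534971-66535270, plus strand: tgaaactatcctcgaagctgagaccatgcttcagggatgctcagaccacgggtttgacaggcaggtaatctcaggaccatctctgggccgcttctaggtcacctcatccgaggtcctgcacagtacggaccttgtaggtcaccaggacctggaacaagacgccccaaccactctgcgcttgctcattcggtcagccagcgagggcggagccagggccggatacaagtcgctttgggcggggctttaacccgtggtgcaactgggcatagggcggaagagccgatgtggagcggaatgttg
TTTGAA or TTCGAA stood in 6 of the 11 member windows, those of Ttk, Bub1, Bub1b, Bub3 and Sgo1, and in 19.2% of all 32851 windows of the table. TTCGAA alone, which was found at position 15 after the start in Bub1, 28 in Sgo1 and -188 in Bub1b, was in 1.56% of all windows. CCAAT stood in 8 of the 11 windows, those of the same 5 genes and Sgo2a, against 37.4% of all windows, and no CCAAT overlapped a cell cycle homology match. The Bub3 windows overlap, and the same TTTGAA and CCAAT sites are counted in each. By gene, the homology letters stood in 5 and CCAAT in 6 of the 8 members with a window. The E2F-type letters GCGCGAA or GCGGGAA were in 1 of the 11 windows, in Sgo2a at position 15, and in 6.0% of all windows. The Myb-type letters AACNG were in 10 of the 11 windows and in 80.3% of all windows. Ttk (by its brighter probe set) and Bub1b, higher in pachytene than in leptotene/zygotene, and Bub1 and Sgo1, lower there, all carried both CCAAT and the homology letters, while the Mad2l1 window held neither. Bub3, higher by the probe set read, also carried both, and Sgo2a, higher too, carried CCAAT without the homology letters. Meikin, the other higher member, had no window. A match describes letters in a window and not a bound site.

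Levels are array signals on a linear scale, scaled so that the 5 arrays of a design share a 2% trimmed mean. Samples numbered 1 were hybridised to the first of 2 array designs and samples numbered 2 to its companion, which carries mostly other probe sets. Each member probe set was read on 1 array per group, so no p-value can be given. The floor, under which a signal is treated as not measured, was 87.3 on the first design and 47.0 on the companion. A difference is called higher or lower when it exceeds the 95% limit of its error, which came from 100 probe sets present on both designs, and a difference of at least 4-fold is said to have risen or fallen. The labels do not say whether samples 1 and 2 of a group were prepared separately, so this limit may leave out the spread between preparations. These are total levels in bulk samples, in which fewer cells of a type and less RNA per cell cannot be told apart.

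The fractions were checked against cell markers. Pachytene markers summed to 1513 in spermatogonia, 5434 in leptotene/zygotene and 72640 in pachytene on the first design, and all 11 rose from leptotene/zygotene to pachytene. Spermatogonial markers were not highest in the spermatogonia: 10 of 13 were higher in leptotene/zygotene, and their sums on the first design were 7612, 13480 and 6598 in the 3 fractions. Of 9 leptotene/zygotene markers 8 were higher in that fraction than in spermatogonia. Their sums on the first design were 3460, 7422 and 3471 in the 3 fractions and 7848 in whole testis. Sertoli cell markers summed to 44950, 40630 and 10730 in the 3 fractions, 30510 in whole testis and 12520 in the somatic mix, and all 12 measured were lower in pachytene than in leptotene/zygotene. Leydig markers were lower there in 5 of 6, and 8 of 9 macrophage and blood markers were higher there. All 9 spermatid markers were at the floor in spermatogonia and leptotene/zygotene, and 5 of 9 in pachytene. Before scaling, the arrays' trimmed means spanned 383 to 484 (the first design) and 63.4 to 148 (the companion). The part of these marker differences in the results that follow was not tested.

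**Figure D1:**
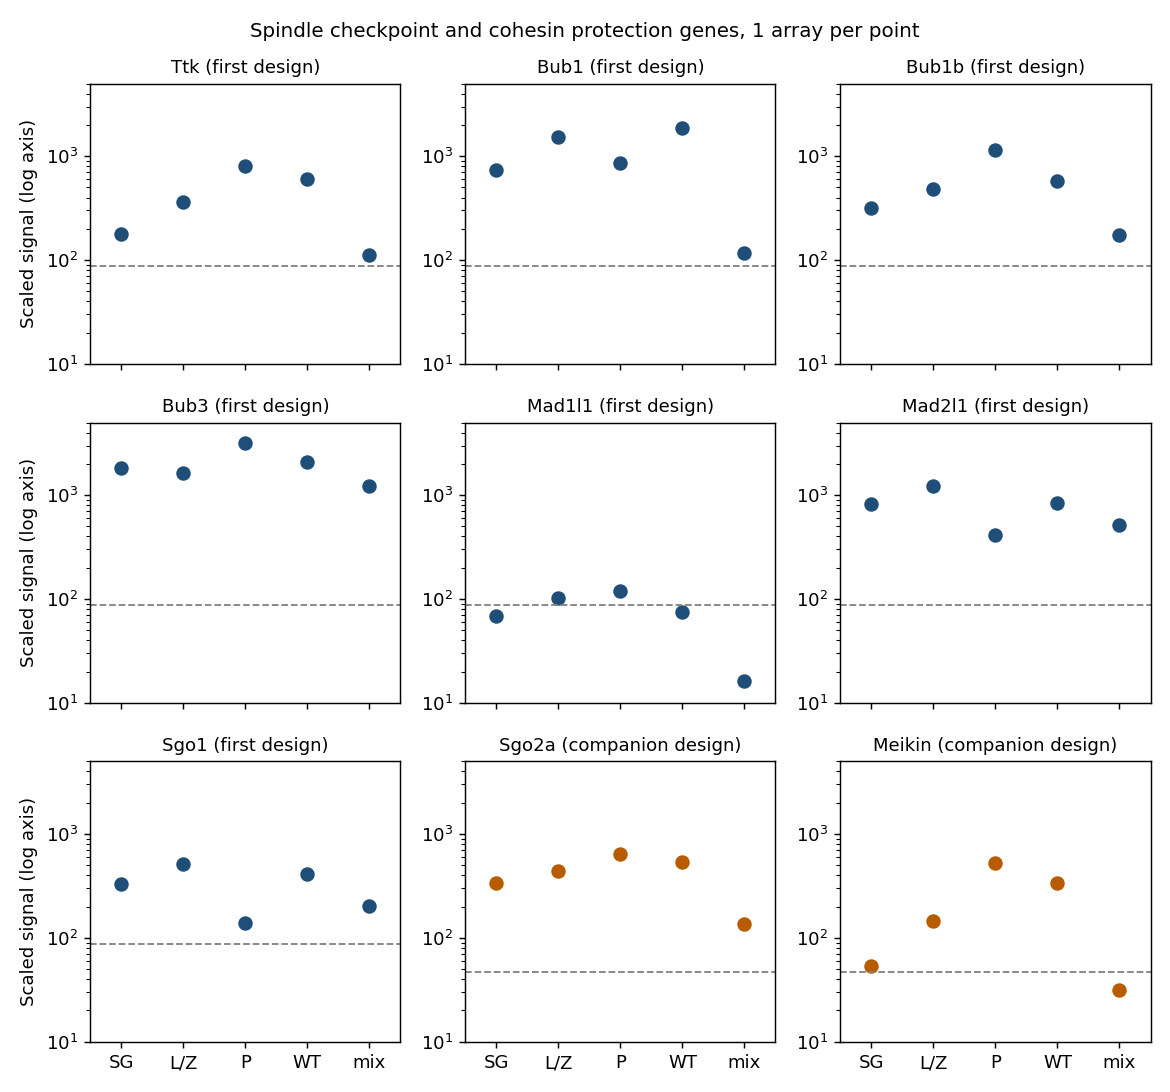
Scaled signal (log axis) of each member in spermatogonia (SG), leptotene/zygotene (L/Z), pachytene (P), whole testis (WT) and the somatic mix (mix), 1 array per point and the floor dashed, blue for the first design and orange for the companion. Ttk, Bub1b, Bub3, Sgo2a and Meikin read highest in pachytene, Mad1l1 lay near or under its floor, and Mad2l1 and Sgo1 were lowest in pachytene.

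Among the checkpoint kinases, Bub1b and, by its brighter probe set, Ttk were higher at both steps, into leptotene/zygotene and into pachytene. Bub1 was higher in leptotene/zygotene and lower again in pachytene. Ttk, the kinase that starts the checkpoint, read 179.5 in spermatogonia, 365 in leptotene/zygotene, 809 in pachytene, 607 in whole testis and 112 in the somatic mix. It was higher at each step, by 1.02 and then 1.15 on the log2 scale, and rose 4.51-fold from spermatogonia to pachytene. Pachytene and whole testis did not differ beyond the limit, and each other neighbour in the order did. These values are from the first design. On the companion another Ttk probe set was at least 1.12 log2 lower in pachytene than in leptotene/zygotene. Bub1b, the pseudokinase of the complex that restrains CDC20, read 315, 489, 1146, 577 and 175 in the same order of groups. Pachytene stood alone at the top for Bub1b, 2.35-fold over leptotene/zygotene and 1.99-fold over whole testis, though its other probe set gave 1.54-fold and 1.29-fold, the latter within the limit, and whole testis and leptotene/zygotene did not differ beyond the limit. Bub1, the kinase that binds KNL1 and marks centromeric chromatin, read 739, 1535, 857, 1870 and 117. It was 2.08-fold higher in leptotene/zygotene than in spermatogonia and then lower by 0.84 log2 in pachytene, which brought it back within the limit of its level in spermatogonia. With median scaling or scaling to the shared probe sets, Bub1 in pachytene stayed above spermatogonia beyond the limit. Whole testis was the highest group for Bub1, within the limit of leptotene/zygotene and 16.0-fold over the somatic mix, the largest span with both ends above the floor. From leptotene/zygotene to pachytene the paralogs Bub1b and Bub1, read on the same arrays, moved apart by 2.07 log2.

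Among the other checkpoint proteins, Bub3 was higher in pachytene, Mad2l1 was lower there and Mad1l1 was too dim to follow. Bub3, the propeller protein that carries BUB1 and BUBR1 to the kinetochore, read 1841, 1616, 3168, 2094 and 1212. Only pachytene stood off from its neighbour in the order, 1.51-fold over whole testis, and the difference between spermatogonia and leptotene/zygotene was -0.19, within the limit. Mad1l1, which anchors MAD2 at the kinetochore, read 68.3, 101, 119, 75.1 and 16.2, above the floor of 87.3 only in leptotene/zygotene and pachytene, and these did not differ beyond the limit. Mad2l1, the protein that captures CDC20, read 821, 1211, 409, 834 and 512. It was highest in leptotene/zygotene, 1.48-fold over spermatogonia, and its pachytene level was 2.96-fold under that of leptotene/zygotene and 2.04-fold under whole testis. The pachytene and somatic mix levels of Mad2l1 did not differ beyond the limit.

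The cohesin protectors divided. Sgo1 read 329, 513, 139.7, 417 and 203, highest in leptotene/zygotene (within the limit of whole testis) and lowest in pachytene. Its pachytene level was 3.67-fold under leptotene/zygotene and 2.98-fold under whole testis, and was not beyond the limit of that in the somatic mix. Sgo2a, the shugoshin needed in meiosis, read 336, 438, 642, 536 and 135 on the companion design. It was 1.30-fold higher in leptotene/zygotene than in spermatogonia and 1.47-fold higher again in pachytene, and 4.76-fold over the somatic mix there. Meikin read 53.9, 145, 531, 334 and 31.3 on the companion design, the last under its floor. Meikin was 2.69-fold higher in leptotene/zygotene than in spermatogonia, a difference that 1.04% of all measured genes reached or passed in the same direction, and then 3.66-fold higher in pachytene. From spermatogonia to pachytene it rose 9.86-fold, and every neighbouring pair in its order differed beyond the limit except spermatogonia and the somatic mix. From leptotene/zygotene to pachytene Sgo2a and Sgo1 moved apart by 2.43 log2, each read on its own design. On the design of Sgo2a, the other Sgo1 probe set was lower in pachytene by at least 0.67 log2. That is a bound, as its pachytene signal was under the floor, so its size cannot be set against the 1.88 of the probe set read. The other probe set was also at least 1.04 log2 lower in pachytene than in the somatic mix.

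**Figure D2:**
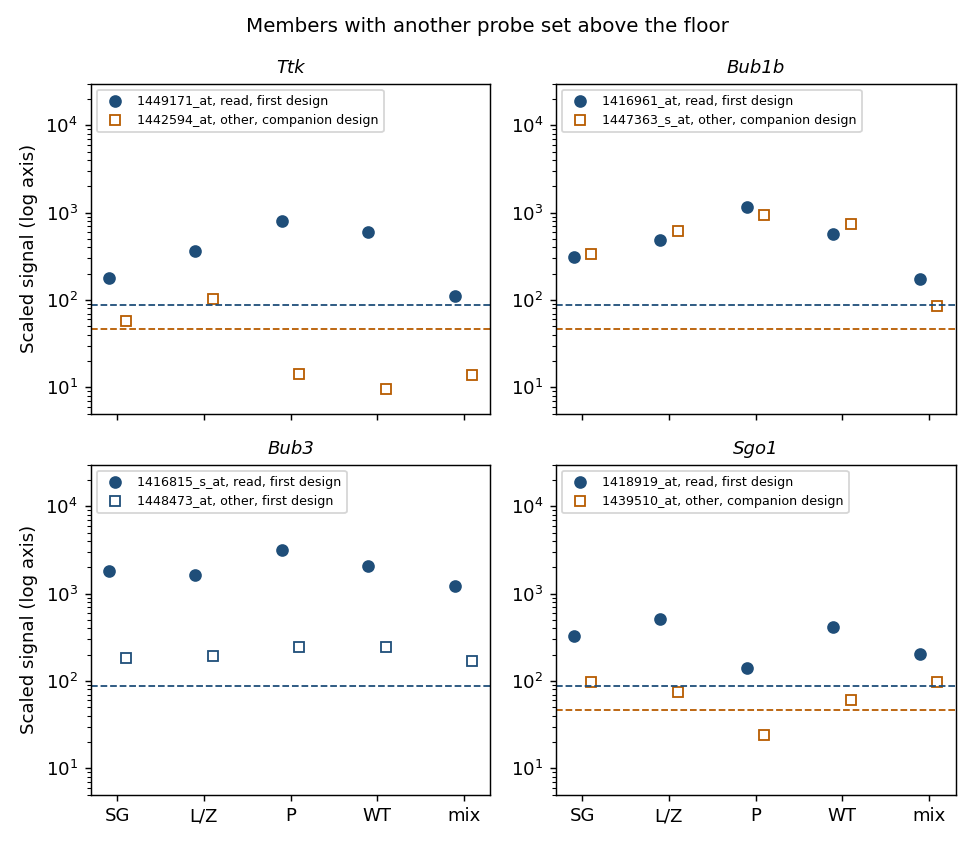
Scaled signal (log axis) of the 4 members with another probe set above its floor, filled for the probe set read and open for the other, in the 5 groups, floors dashed in the colour of the design. Both Bub1b probe sets increase from SG to L/Z to P, and the other Ttk probe set reads 14.1 in P, under its floor.

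Probe sets of a gene did not always go the same way. Of the 19 probe sets, 13 were above the floor in some group and 6 never, and 4 members had another measured probe set. The other Bub1b probe set, 1447363_s_at on the companion, read 334, 611, 942, 732 and 84.8 and kept the order of the 3 fractions. It put whole testis 8.64-fold over the somatic mix, where the brighter one gave 3.29-fold. The other Ttk probe set, 1442594_at on the companion, read 57.4, 102, 14.1, 9.47 and 13.9. It gave Ttk at least 1.12 log2 lower in pachytene than in leptotene/zygotene, opposite to the brighter probe set, so the direction of Ttk between those fractions rests on the first design, as does its rise from spermatogonia to pachytene (at least 0.29 log2 lower by the dimmer probe set). Against whole testis the dimmer probe set also went the opposite way, at least 1.12 log2 higher in leptotene/zygotene and at least 0.29 higher in spermatogonia. The other Sgo1 probe set, 1439510_at on the companion, read 97.4, 74.8, 24.2, 60.6 and 97.0. It was also lowest in pachytene, there under its floor, but it was lower in leptotene/zygotene than in spermatogonia by 0.38 log2, where the brighter one was higher by 0.64, and in whole testis than in the somatic mix by 0.68, where the brighter one was higher by 1.04. The other Bub3 probe set, 1448473_at, read 186, 195, 243, 244 and 171, and its pachytene level was within the limit of leptotene/zygotene (0.32 log2), spermatogonia (0.38) and whole testis (-0.01). The Bub3 probe set read, 1416815_s_at, has a suffix that Affymetrix gives to sets able to match several transcripts.

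From spermatogonia to leptotene/zygotene 7 of the 9 members were higher, none lower, and Bub3 and Mad1l1 lay within the limit of 0.35. For Sgo1 this holds for the probe set read, as its other probe set was lower by 0.38 log2, beyond the limit. Of the 12920 genes measured in this comparison, 24.1% were higher and 22.2% lower. The members' median difference was 0.63, against 0.02 over all genes. No member changed 4-fold, and 0.588% of all genes did. The meiosis-specific Meikin had the largest difference, 1.43, followed by Bub1 with 1.06 and Ttk with 1.02. With a wider limit of 0.84, taken from genes that each design reads with a probe set of its own, these 3 were the members that remained beyond it. Peritubular and stromal markers were lower in this step in 10 of 11, their sums going from 47310 to 25380, and Leydig markers in 6 of 6, from 14170 to 8702. The part of these markers in the members' differences was not tested.

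**Figure D3:**
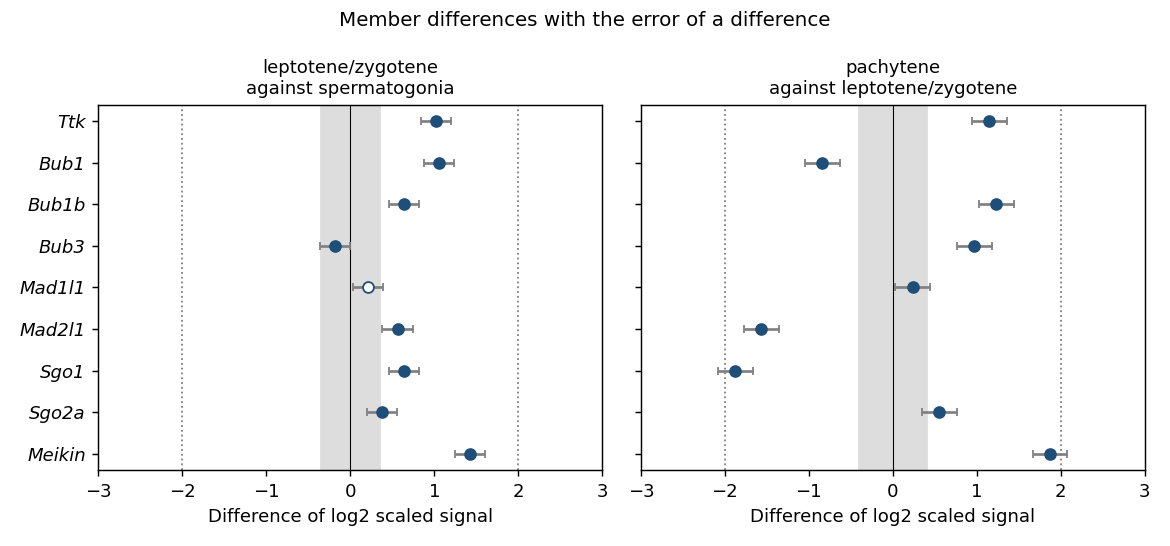
Difference of log2 scaled signal for each member, leptotene/zygotene against spermatogonia on the left and pachytene against leptotene/zygotene on the right. Bars are the error of a difference, the grey band the limit, dotted lines 4-fold and the open point a bound; on the left 7 members lie right of the band, on the right 5 lie right and 3 left of it.

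From leptotene/zygotene to pachytene the members parted: Ttk, Bub1b, Bub3, Sgo2a and Meikin were higher, Bub1, Mad2l1 and Sgo1 lower, and Mad1l1 lay within the limit of 0.41. The direction of Ttk rests on the first design, its other probe set being at least 1.12 lower. The other Bub3 probe set (0.32) lay within the limit. Of the 13524 genes measured in this comparison, 30.0% were higher and 44.0% lower, and 18.0% changed 4-fold, which no member did. The members' median was 0.55 and that of all genes -0.22. Of all genes, 11.0% were at or below the difference of Sgo1 (-1.88) and 9.42% at or above that of Meikin (1.87). Under the wider limit of 1.77 from different probe sets, Sgo1 and Meikin were the members beyond it. Scaling to the probe sets shared by the designs moved the median of all genes by 0.36, and every member difference beyond the limit kept its sign under that and the other 3 scalings. Bub1 was then at -0.42 in place of -0.84, and under quantile normalization Sgo2a was at 0.24 in place of 0.55, inside the limit. The Sertoli list (all 12 lower, median -2.21) and the spermatogonial list (11 of 12 lower, median -2.37) moved the same way as Sgo1, Mad2l1 and Bub1. So did the leptotene/zygotene markers (8 of 9 lower, median -0.96), the Leydig list (5 of 6 lower) and the peritubular and stromal list (7 of 10 lower). The pachytene markers (all 11 higher) and the macrophage and blood list (8 of 9 higher) moved the other way. The part of these lists in the members' differences was not tested.

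**Figure D4:**
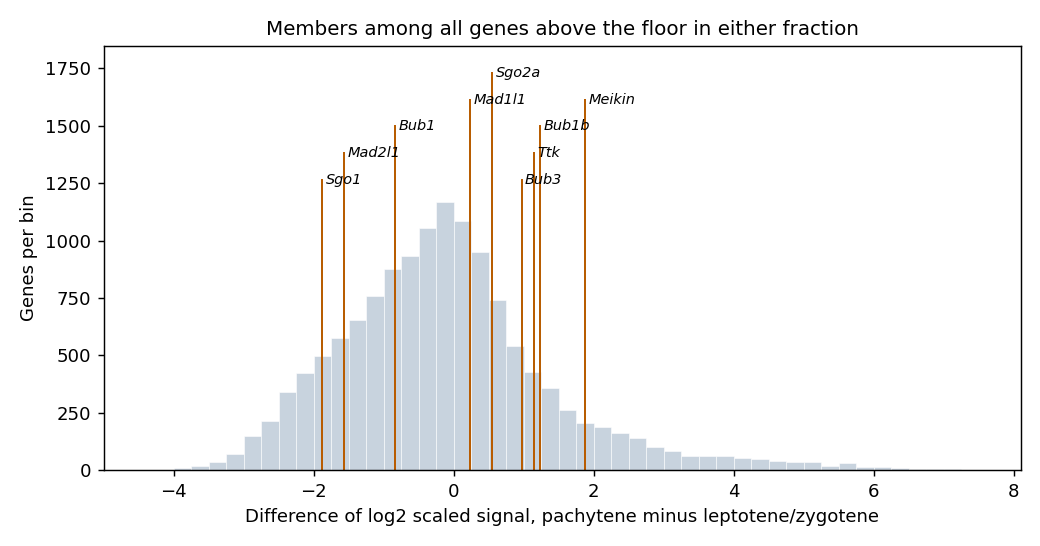
Number of genes per bin of 0.25 in the difference of log2 scaled signal, pachytene minus leptotene/zygotene, for all 13524 genes above the floor in either fraction, with the members marked by lines. Sgo1 at -1.88 and Meikin at 1.87 are the outermost members, with genes farther out on both sides.

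Across the whole span from spermatogonia to pachytene, Ttk (2.17 log2, first design only) and Meikin (3.30) rose past 4-fold, and Bub1b (1.87), Sgo2a (0.93) and Bub3 (0.78) were higher. The other Ttk probe set was at least 0.29 lower, and the other Bub3 probe set (0.38) lay within the limit. Mad2l1 (-1.01) and Sgo1 (-1.24) were lower, and Bub1 and Mad1l1 lay within the limit of 0.46. With median scaling or scaling to the shared probe sets, Bub1 and Mad1l1 were higher beyond the limit. Over all genes 29.8% were higher, 42.6% lower and 22.1% changed 4-fold. The members' median was 0.78, against -0.22.

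Against whole testis, where Mad1l1 was under the floor on both sides, spermatogonia had 5 of the 8 measured members lower and none higher. These were Bub1, Bub1b, Sgo2a, Meikin and, on the first design only, Ttk. That none was higher holds for the probe sets read. The other Sgo1 probe set was higher by 0.68 log2, beyond the limit of 0.54, where the one read gave -0.34. Over all genes 24.8% were lower, 25.0% higher and 7.13% changed 4-fold. Meikin was the member past 4-fold, at 6.20-fold under whole testis. Leptotene/zygotene stayed close to whole testis: Mad2l1 was higher by 0.54, Ttk lower by 0.73 (first design only) and Meikin lower by 1.20, and the other 6 lay within the limit. Over all genes 25.8% were higher in leptotene/zygotene and 25.8% lower, and 5.34% changed 4-fold. Pachytene exceeded whole testis in Bub1b (0.99), Meikin (0.67) and Bub3 (0.60), of which the other probe sets of Bub1b (0.36) and Bub3 (-0.01) lay within the limit, and was under it in Sgo1 (-1.58), Bub1 (-1.13) and Mad2l1 (-1.03). Over all genes 25.7% were higher in pachytene, 38.2% lower and 6.74% changed 4-fold, which no member did. The comparisons with whole testis share its arrays.

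Against the somatic mix, whole testis was higher in all 8 measured members, where 29.0% of all genes were higher and 30.6% lower. The other Sgo1 probe set was instead lower by 0.68 log2, beyond the limit of 0.57, and the other Bub3 probe set (0.51) lay within that limit. Bub1 rose 16.0-fold, Ttk 5.44-fold and Meikin at least 7.11-fold, a bound because the mix was under the floor, and 12.9% of all genes changed 4-fold. Sgo2a missed that size at 3.98-fold, and Bub3 (1.73-fold) and Mad2l1 (1.63-fold) differed least. Pachytene was higher than the mix in 6 of 9 members, with 28.1% of all genes higher and 41.7% lower. Ttk, Bub1, Bub1b, Sgo2a and Meikin were past 4-fold there, as were 23.8% of all genes, while Mad2l1, Sgo1 and Mad1l1 lay within the limit of 0.61. By their other probe sets, Bub3 (0.51) lay within that limit and Sgo1 was at least 1.04 log2 lower, beyond it.

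The other genes of the pathway were read from lists that held none of the members. Over all genes, 30.0% were higher and 44.0% lower in pachytene than in leptotene/zygotene, and 18.0% changed 4-fold. Of 17 measured genes that build the checkpoint platform at the kinetochore, 5 were higher and 4 lower in pachytene than in leptotene/zygotene, with a median of 0.06. Among them 1 rose past 4-fold: Haspin, the kinase that marks histone H3 for the chromosomal passenger complex, was under the floor in spermatogonia and leptotene/zygotene, 2886 in pachytene and 733 in whole testis, a rise of at least 33.1-fold. From spermatogonia to leptotene/zygotene 12 of 16 genes of this list were higher and none lower, with 24.1% of all genes higher and 22.2% lower. Among 15 checkpoint targets and silencing genes 6 were higher and 6 lower in pachytene. Fzr1, the other activator of the anaphase promoting complex, rose 6.15-fold, the complex's inhibitor Fbxo5 fell at least 5.63-fold to under its floor, and Ppp1ca, a catalytic subunit of phosphatase 1, fell 6.40-fold.

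Of 10 passenger complex and checkpoint kinase genes 8 were higher in pachytene and 1 lower, with a median of 1.05. Over all genes, 30.0% were higher and 44.0% lower in pachytene than in leptotene/zygotene, and 18.0% changed 4-fold. Aurkc, the Aurora kinase of germ cells, rose 14.1-fold from 123 to 1729, and Aurka rose 9.41-fold from 491 to 4622. Of 10 genes listed as phosphatase 2A partners of shugoshin, the subunits of the phosphatase and Set, 3 were higher and 4 lower, near the shares over all genes. Ppp2r5c, a B56 regulatory subunit, rose 7.78-fold from 479 to 3726, whereas Ppp2r5a, another B56 subunit, fell at least 4.88-fold from 426 to under the floor. Of 18 genes of cohesin and of its regulation and release 6 were higher and 11 lower in pachytene, with a median of -0.59. The higher ones included Espl1 (separase), Pttg1 and Wapl, which are not cohesin subunits. Pds5b, a cohesin-bound regulator, fell 4.36-fold, and Esco2, an acetyltransferase of cohesin, fell at least 5.08-fold to under its floor.

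**Figure D5:**
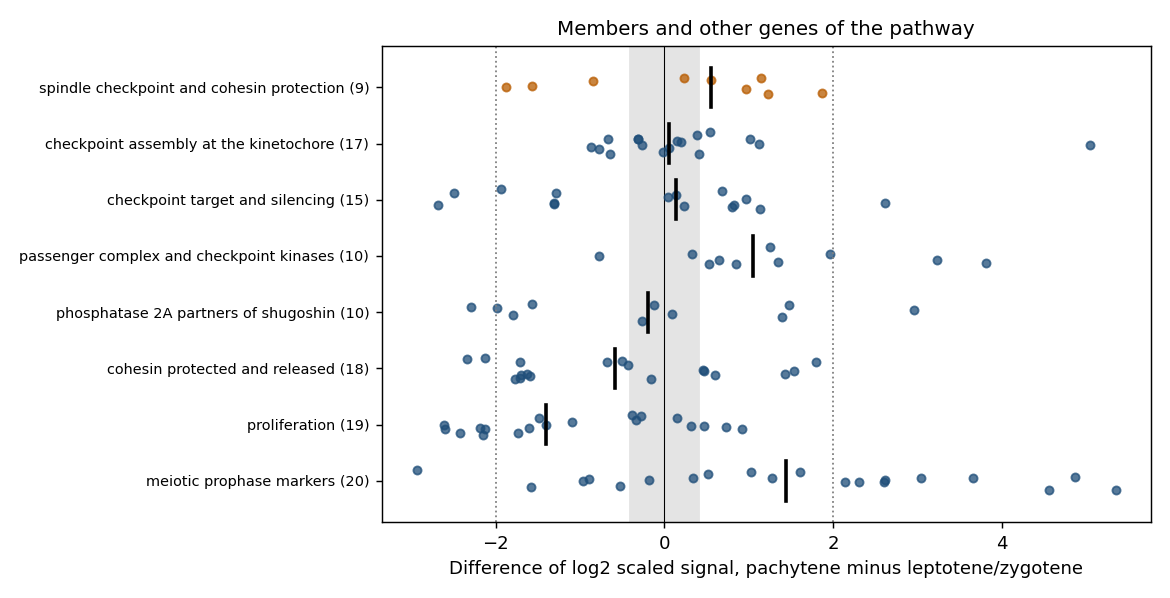
Difference of log2 scaled signal, pachytene minus leptotene/zygotene, for the 9 members and for the other gene lists (measured genes in parentheses), 1 point per gene, with the list median as a bar, the limit as the grey band and 4-fold dotted. The members lie between the dotted lines, while Haspin at 5.05 and Aurkc at 3.82 lie far to the right.

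Proliferation genes and prophase markers frame these differences. Over all genes, 24.1% were higher and 22.2% lower in leptotene/zygotene than in spermatogonia, and 0.588% changed 4-fold. In pachytene against leptotene/zygotene these shares were 30.0%, 44.0% and 18.0%. Of 19 measured proliferation genes 18 were higher in leptotene/zygotene than in spermatogonia, and in pachytene 11 were lower than in leptotene/zygotene and 3 higher, with a median of -1.40. Mcm3, Mcm4 and Mcm5 of the replicative helicase, the loading factors Cdc6 and Cdt1, and the cyclin Ccna2 fell past 4-fold, between 4.35-fold and 6.11-fold. Of 20 prophase markers 13 were higher and 5 lower in pachytene, with a median of 1.44. The 9 rises past 4-fold ran from Syce1 of the synaptonemal complex (4.43-fold) to Tcp11 (40.8-fold) and included Spo11, Ccna1, Piwil1, Ldhc, Pgk2, Hspa2 and Zfp541 (Ccna1 and Pgk2 from under the floor), and the recombinase Dmc1 fell 7.63-fold. Meiob, Piwil1, Ldhc and Zfp541 had already risen past 4-fold in leptotene/zygotene.

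For the members that spanned at least 4-fold, the genes with the most similar profile over the 5 groups were found among genes read from the same design. For Ttk these were Spast (root mean square difference of centred log2 signal 0.06), Smc4 (0.11) and 2610301B20Rik (0.15). For Bub1b they were Pdcd2l (0.05), Fgfr1op2 (0.06) and Plekha5 (0.07). For Bub1 the nearest were farther away, with Tex14 at 0.28, Ccnb1ip1 at 0.32 and Mov10l1 at 0.32. For Sgo2a they were Cep44 (0.07), Usp32 (0.08) and Cnot11 (0.10), and for Meikin Nol8 (0.21), Ttc26 (0.22) and Kbtbd6 (0.22). The search covered 10426 genes on the first design and 5280 on the companion, with 5 arrays each.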

How the data were processed

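The authors deposited linear intensity values, 1 per probe set, for 10 arrays, 5 on each of 2 Affymetrix designs. Per the submitters' processing notes the software was GCOS 1, without a scaling target or background correction being named in the labels used here. Per the labels, biotin-labelled cRNA was amplified from total RNA. The labels do not say whether samples 1 and 2 of a group were prepared separately.

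Each array was scaled to the mean 2% trimmed mean of its design's 5 arrays. The floor on the first design was 87.3, the 90th percentile among 71 probe sets of chemosensory receptors, and, with 15 such probe sets on the companion where 20 were required, there the median of all signals (47.0). A gene was read from its brightest probe set, from the first design where any there was above the floor. Signals below the floor were set to it, which makes a difference against it a bound. For 100 probe sets present on both designs, the gap between the designs' differences gave the error (its root mean square over the square root of 2), from which the 95% limit follows. The shared probe sets were bright (lowest mean signal 170), and no limit was measured nearer the floor.

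Names came from GEO's platform annotation, updated by Entrez identifier. The members, gene lists and naming rule were chosen with earlier results of these data known. All 9 members were named, and from each list the genes past 4-fold in leptotene/zygotene against spermatogonia or in pachytene against leptotene/zygotene. Set, Espl1, Pttg1 and Wapl were named only to describe the lists that hold them. Protein comparisons were not made here. The steps were tested on simulated data. Python 3.11.15, numpy 2.4.6, pandas 2.3.3 and matplotlib 3.10.9 were used. Alternatives were quantile normalization, median scaling, values as deposited, scaling to shared probe sets, plain probe sets (no letter before _at), averaged probe sets, other floors, the floor added before log2, and each design alone.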

Additional observations from a re-analysis of the deposited data

How the results depend on the processing

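No paired analysis was possible because each probe set was read on 1 array per group, the replicate number is the array design, and the results come from no test. Of 706 values of member differences under the alternatives 14 changed sign, 7 of them differences within the limit and 7 differences beyond it. The latter were those of Ttk and Sgo1 read on 1 design alone and 1 of Bub3. Reading each design alone, Ttk ranged from -1.12 to 1.15 in pachytene against leptotene/zygotene, -0.29 to 2.17 against spermatogonia, -0.73 to 1.12 in leptotene/zygotene against whole testis and -1.76 to 0.29 in spermatogonia against whole testis. Sgo1 ranged from -0.38 to 0.64 in leptotene/zygotene against spermatogonia and -0.68 to 1.04 in whole testis against the somatic mix. With plain probe sets Bub3 was -0.0072 in pachytene against whole testis. The probe sets differ between these readings, and the cause was not tested further.

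The members' median kept its sign in all 8 comparisons under the alternatives run. In pachytene against leptotene/zygotene it was 0.95 with median scaling, 1.07 with shared-probe-set scaling, 0.76 with the floor at the 60th percentile and 0.32 with the mean over probe sets, and 0.24 to 0.55 on each design alone. In pachytene against spermatogonia it was 1.18, 1.16 and 0.45 with median scaling, shared scaling and the mean, and 0.45 to 0.93 on each design. In leptotene/zygotene against spermatogonia it was 0.63 to 0.83 on each design. Against whole testis it was -0.48 (as deposited) and -1.06 (shared scaling) for spermatogonia, -0.53 (shared scaling) for leptotene/zygotene, and 0.77 (median scaling) and 0.13 (plain probe sets) for pachytene. Pachytene against the mix gave 2.93 with median scaling, 2.63 as deposited, 2.62 with shared scaling, 1.93 with the 60th percentile floor, 1.92 with signal plus floor, 1.44 with the mean and 1.39 to 2.86 on each design. Whole testis against the mix gave 1.40 with the 60th percentile floor, 1.51 with signal plus floor and 1.38 to 2.41 on each design.

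The limit was recomputed under each scaling. In pachytene against leptotene/zygotene 8 members were beyond it, and 5 with quantile normalization (limit 0.98) and 4 as deposited (limit 1.13); at the limit of 0.41 both gave 8. In pachytene against spermatogonia the 7 became 3 with quantile normalization (limit 0.95), or 8 at the limit of 0.46. They became 9 with median scaling (limit 0.56) and with shared scaling (limit 0.35). Bub1 then stood at 0.61 and 0.59 and Mad1l1 at 0.81 and 0.64. Against whole testis the deposited values, with their own limits, gave 3 in place of 5 in spermatogonia, 1 in place of 3 in leptotene/zygotene and 1 in place of 6 in pachytene, and shared scaling gave 6 in leptotene/zygotene. The limit from different probe sets left 2 of 8 in pachytene and 3 of 7 in leptotene/zygotene over the preceding fraction, 2 of 7 in pachytene against spermatogonia, 2 of 5, 0 of 3 and 1 of 6 in the 3 fractions against whole testis, and 5 of 8 in whole testis against the mix. With an error from the dimmer shared probe sets, chosen after seeing the data, no count moved by over 1.5 times. No member passed 4-fold in pachytene against leptotene/zygotene, but 1 did with median or shared scaling and 2 as deposited, and 5 passed 2-fold.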
